A study of Mus musculus with 19 samples.

Results

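The AP-1 transcription factors described here are 8 of the 54352 genes counted in the 19 libraries, namely *Jun*, *Junb*, *Jund*, *Fos*, *Fosb*, *Fosl2*, *Atf3* and *Batf*. They were chosen by family membership, after lower *Jun* and *Jund* in common myeloid progenitors (CMPs) upon *Spehd* knockdown had been seen in these libraries. The fall in CMPs therefore helped to select them, and it is given below as a description with no test. RNA was sequenced from CMPs and from LSK cells (lineage-negative, Sca1-positive, cKit-positive stem and progenitor cells, called KLS in the labels). Both were sorted from mouse bone marrow that had been depleted of differentiated cells, per the study's methods. The cells carried a doxycycline-inducible shRNA, either sh10 or sh20 against the lncRNA *Spehd* (*lnc12928*) or one against *Renilla* luciferase as the control. There were 3 sh10, 2 sh20 and 4 *Renilla* libraries from CMPs and 3, 3 and 4 from LSK cells. In every group, the *Renilla* controls included, donor stem cells carrying the vector (strain C57BL6 in the labels, C57BL6J in the study's methods) had been transplanted, recipients were reconstituted for 10 weeks and then had doxycycline for 6 days. The host was a C57BL/6-CD45.1 strain with the cKit-w41 allele that was irradiated below a lethal dose, so host blood cells remained, and cells were sorted as zsGreen-positive, the reporter of the induced vector. Replicate letters run from A to D, and nothing states whether libraries of a group came from separate animals or pools, so the p-values measure the spread between these libraries only.

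AP-1 is a dimer of basic leucine zipper proteins. JUN proteins pair with each other or with FOS, FOSL, ATF and BATF proteins, whereas FOS proteins need a JUN partner, and the dimers bind short palindromic DNA elements. Several members are immediate early genes, transcribed within minutes of a growth factor, cytokine or stress signal, handling of tissue included. In blood, *Junb* and *Jund* are known for restraining proliferation of myeloid progenitors, and *Jun* and *Fos* for roles in monocyte differentiation.

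Total gene counts per library lay between 3647318 and 5965155 (median 4918631). In CMPs all 5 *Spehd* shRNA libraries were larger (4918631 to 5965155 counts) than all 4 *Renilla* libraries (3857980 to 4314959), a depth difference that runs alongside every CMP knockdown value below. No gene counted is named *Spehd*, so the extent of the knockdown was not measured here. The labels were checked against marker genes. In the *Renilla* libraries the stem cell marker *Ly6a*, which encodes Sca1, had a mean of 5.16 CPM (counts scaled to library size) in CMPs and 50.8 CPM in LSK cells, and the erythroid factor *Klf1* had 298 and 36.2 CPM. Of the 9 LSK markers 7 were lower in CMPs past the threshold and 0 higher. Of the 9 CMP markers, however, 3 were higher in CMPs and 6 lower, with a median log2 difference of -1.42, and the granule protease *Elane* had 35.3 CPM in CMPs and 147 CPM in LSK cells. The CMP markers thus went with the label only in part. Summed levels of markers of other blood cells were uneven. Those of 7 monocyte and macrophage markers ran from 222 to 585 CPM over the CMP libraries and from 356 to 572 over the LSK libraries, and those of 4 megakaryocyte markers from 564 to 1037 and from 440 to 650. The sum of 6 B cell markers ran from 28.2 to 63.2 CPM with *Renilla* shRNA in CMPs, from 24.1 to 37.7 with sh10 and from 72.2 to 171 with sh20, and from 61.8 to 90.4 in LSK cells. The summed level of 6 T cell markers ran from 135 to 193 CPM with *Renilla* shRNA in CMPs, from 13.4 to 35.9 with sh10 and from 122 to 197 with sh20. In LSK cells that sum ran from 41.6 to 75.2 CPM over all groups. The sum of 7 neutrophil markers ran from 1.22 to 11.3 CPM over all CMP libraries, from 5.06 to 309 with *Renilla* shRNA in LSK cells, from 69.5 to 292 with sh10 and from 4.77 to 7.51 with sh20.

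The promoters of *Jun*, *Fos* and *Junb* are shown, because the results turn on the first 2 and because early response genes are known to answer to signals through elements close to the start site. RefSeq on GRCm38.p6 gave a start for all 8 members. The 250 bases before the start follow, 5′ to 3′ on the gene's strand, with motifs in capitals.
Jun, chr4:95052223-95052472, minus strand: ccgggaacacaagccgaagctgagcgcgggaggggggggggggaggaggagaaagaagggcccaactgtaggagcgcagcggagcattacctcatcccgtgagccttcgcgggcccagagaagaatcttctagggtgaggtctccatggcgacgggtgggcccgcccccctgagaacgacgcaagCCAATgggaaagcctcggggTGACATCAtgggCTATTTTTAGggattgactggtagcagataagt
Fos, chr12:85473640-85473889, plus strand: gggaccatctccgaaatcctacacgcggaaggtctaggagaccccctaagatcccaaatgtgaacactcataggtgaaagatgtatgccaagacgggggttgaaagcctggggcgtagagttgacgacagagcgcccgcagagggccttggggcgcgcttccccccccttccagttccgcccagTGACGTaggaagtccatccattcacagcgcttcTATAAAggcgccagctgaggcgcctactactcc
Junb, chr8:84978749-84978998, minus strand: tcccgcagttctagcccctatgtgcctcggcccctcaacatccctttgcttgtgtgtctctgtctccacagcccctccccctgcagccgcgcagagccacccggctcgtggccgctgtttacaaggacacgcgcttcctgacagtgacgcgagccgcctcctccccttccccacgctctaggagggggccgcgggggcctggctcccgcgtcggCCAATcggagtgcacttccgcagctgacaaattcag

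Capitals mark matches on either strand to the AP-1 element TGACTCA, its variant TGACATCA, the cyclic AMP response element TGACGTCA, its shorter form TGACGT (counted also within the full element), the MEF2 and CArG boxes, CCAAT and TATAAA. The *Jun* window held TGACATCA at bases -45 to -38 from the start, a MEF2 box at -33 to -24 and CCAAT at -65 to -61. The *Fos* window held TGACGT at -66 to -61 and TATAAA at -33 to -28, and the *Junb* window held CCAAT at -36 to -32. Of 32851 promoter windows of this length, 2.93% held TGACATCA, 0.508% a MEF2 box, 6.47% TGACGT, 33.9% CCAAT and 12.4% TATAAA. None of the 8 windows held TGACTCA, which 4.46% of all windows held, and this says only that these letters lie outside the windows. The starts of *Jun* and *Fos* were the same in GENCODE, those of *Fosb*, *Junb* and *Batf* lay 6, 30 and 51 bases away, and those of *Fosl2*, *Jund* and *Atf3* 671, 1210 and 34706 bases away, so the windows of the last 3 are not those of the gene models used here.

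In GENCODE on GRCm38, *Jun* (ENSMUSG00000052684.4) is a gene of a single exon on the minus strand of chromosome 4 from 95049034 to 95052222. *Junb* (ENSMUSG00000052837.6) lies on the minus strand of chromosome 8 from 84974484 to 84978718, and *Jund* (ENSMUSG00000071076.6), also of a single exon, on its plus strand from 70698949 to 70700616. *Fos* (ENSMUSG00000021250.13) and *Batf* (ENSMUSG00000034266.6) both lie on the plus strand of chromosome 12, from 85473890 to 85477273 and from 85686669 to 85709087. *Fosl2* (ENSMUSG00000029135.10) lies on the plus strand of chromosome 5 from 32135801 to 32157842.

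*Jund* was the most abundant member per length in the control libraries. Per kilobase of exon, *Jund* had a mean of 115 ± 8.6 CPM (SD, n = 4) with *Renilla* shRNA in CMPs, *Junb* 61.9 ± 6.85, *Jun* 59.9 ± 17.3 and *Batf* 31.7 ± 6.41. *Junb* and *Jun* did not differ in that order beyond their spread. *Fos* followed at 7.97 ± 8.34 CPM per kilobase, a spread as wide as its mean, and *Fosl2* at 0.478 ± 0.0867. In LSK cells with *Renilla* shRNA the order on the same scale was *Jund* at 88.2 ± 14.2, *Jun* at 48.3 ± 18.4, *Junb* at 47.4 ± 4.24 and *Batf* at 43.5 ± 3.38 CPM per kilobase, the last 3 within each other's spread. *Fos* at 2.4 ± 1.35 and *Fosl2* at 1.37 ± 0.566 CPM per kilobase also lay within reach of each other there. In the 5 CMP libraries with a *Spehd* shRNA, *Jun* stood at 15.7 ± 3.79 CPM per kilobase, below *Batf* at 28 ± 9.22, while *Jund* at 72.9 ± 3.92 and *Junb* at 48.8 ± 1.67 kept the first places. With sh10 *Jun* at 16.2 ± 4.49 and *Batf* at 21.7 ± 3.97 lay within each other's spread. With sh20 they had 15 ± 3.92 and 37.5 ± 2.87.

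Of the 8 members, 6 passed the filter on low counts in the comparisons within a cell type. *Fosb*, a FOS family activator, passed in none and had 0 to 4 counts in any CMP library and 0 to 8 in any LSK library. *Atf3*, a stress-induced ATF family member, passed only where all 19 libraries were fitted together. It had 0 to 8 counts in the CMP libraries. In LSK cells it had 45 counts in sh20 replicate B and 0 to 13 in each of the other libraries. A library at 0 allows up to 3 counts, and no fold change is given for either gene. Between the cell types with sh20 *Atf3* had an adjusted p of 0.154 by edgeR's quasi-likelihood test and 0.0126 with no filter on low counts, which rests on the 45 counts of 1 LSK library.

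**Figure D1:**
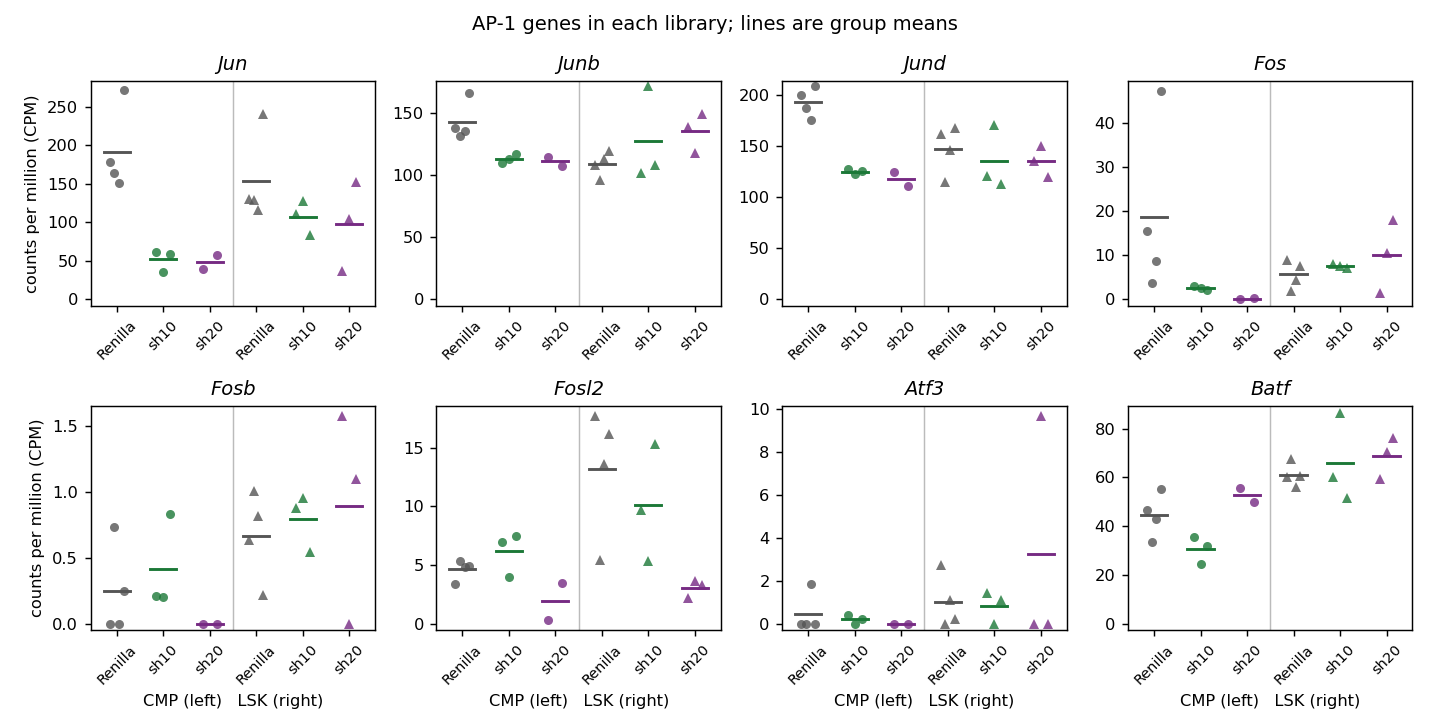
Level of each AP-1 gene in CPM (vertical axes, each starting at 0) in every library, by shRNA with CMPs as circles on the left and LSK cells as triangles on the right; horizontal lines are group means. The 5 CMP libraries with a *Spehd* shRNA lie below all 4 *Renilla* libraries for *Jun*, *Junb*, *Jund* and *Fos*, and the groups overlap for these genes in LSK cells.

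*Jun*, the founding member and main partner of FOS, was far below its control level in CMPs with either shRNA. It had 178, 164, 151 and 272 CPM in *Renilla* replicates A to D. With sh10 it had 60.9, 35.3 and 59.2 CPM in replicates A to C, and with sh20 it had 39 and 56.8 CPM in replicates B and C. No *Spehd* library reached the lowest *Renilla* library, and *Renilla* replicate D was the highest of all 19 libraries. The fitted log2 fold change was -1.93 (SE 0.22) for both shRNAs together, -1.89 (SE 0.26) for sh10 and -1.98 (SE 0.31) for sh20. In bulk RNA, fewer cells with *Jun* transcripts and fewer transcripts per cell cannot be told apart.

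*Jund*, which is expressed more steadily than *Jun* in most tissues, had the narrowest spread relative to its mean of the 3 JUN genes with *Renilla* shRNA in CMPs. It had 199, 187, 175 and 208 CPM with *Renilla* shRNA in CMPs, 127, 122 and 125 CPM with sh10 and 124 and 110 CPM with sh20. The gap between the groups was wider than the spread within either. The log2 fold change was -0.66 (SE 0.07) for both shRNAs, -0.63 (SE 0.08) for sh10 and -0.7 (SE 0.09) for sh20. *Junb*, a weaker activator that can oppose *Jun*, had 138, 131, 135 and 166 CPM with *Renilla* shRNA, 110, 113 and 117 CPM with sh10 and 115 and 108 CPM with sh20. Its groups did not overlap either, with a smaller log2 fold change of -0.34 (SE 0.08). When log2 total counts entered the model of all 19 libraries as a covariate, the log2 fold change in CMPs was -1.87 for *Jun*, -0.32 for *Jund* and -0.08 for *Junb*, so the values of *Jund* and *Junb* moved towards 0 under this covariate and that of *Jun* moved little.

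*Fos*, the partner that gives JUN-FOS dimers, had the widest spread relative to its mean of the 6 members tested, with *Renilla* shRNA in CMPs. It had 15.5, 3.65, 8.56 and 47.3 CPM with *Renilla* shRNA in CMPs, a range of 15 to 193 counts. With sh10 it had 2.94, 2.61 and 2.09 CPM, or 14, 13 and 10 counts. The sh20 libraries held 0 and 1 count. All 5 *Spehd* libraries were below all 4 *Renilla* libraries, the lowest *Renilla* library having 3.65 CPM. Over the summed libraries, 304 counts with *Renilla* shRNA and 37 with sh10 gave a level 7.57 times higher in the controls (95% exact binomial interval 5.37 to 10.9, for counting error only). Of these 304 counts 193 came from *Renilla* replicate D, and without it the ratio was 3.67 (2.51 to 5.48). The ratio for sh20, with 1 count, was 215 with an interval of 38.4 to 8532, and 105 (18.4 to 4166) without replicate D.

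The other FOS and BATF members did not share this pattern. *Fosl2*, which encodes FRA-2, had 3.42, 5.35, 4.86 and 4.9 CPM with *Renilla* shRNA in CMPs and 6.93, 4.01 and 7.51 with sh10. With sh20 it had 0.338 and 3.5 CPM, the former from 2 counts. *Batf*, which lacks an activation domain of its own and pairs with JUN proteins, had 46.5, 33.5, 43.1 and 55.3 CPM with *Renilla* shRNA. It had 35.5, 24.5 and 31.7 CPM with sh10 and 55.6 and 49.9 CPM with sh20, so the shRNAs fell on opposite sides of the control mean. Their log2 fold changes for both shRNAs together were -0.06 (SE 0.64) for *Fosl2* and -0.17 (SE 0.26) for *Batf*, both smaller than their errors, and that of *Fosl2* had either sign when a library was left out, that of *Batf* being 0.03 with the covariate of log2 total counts.

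In all, 4 of the 6 members tested lay lower in every *Spehd* library than in every *Renilla* library from CMPs, and 6.38% of the 12912 genes tested did so. Since the fall of *Jun* and *Jund* chose the members, nothing is read from that count. The median log2 fold change of the 6 members was -0.5, against 0.02 over all genes, and it was -0.26 without *Jun* and *Jund*. The heat shock genes, a list that also answers to handling of cells, had summed levels of 1343 to 1531 CPM with *Renilla* shRNA in CMPs, 1343 to 1407 CPM with sh10 and 1193 to 1195 CPM with sh20, with *Hspb1* at 0 in all. With sh20 the 11 heat shock genes tested had a median log2 fold change of -0.36 against *Renilla* shRNA, and all genes had 0.01. The part of a handling response in the members' values was not tested. The T cell markers described above were lower with sh10 than with *Renilla* shRNA, and with sh20 their sums lay around the *Renilla* range. Their part in the members' values was not tested.

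**Figure D2:**
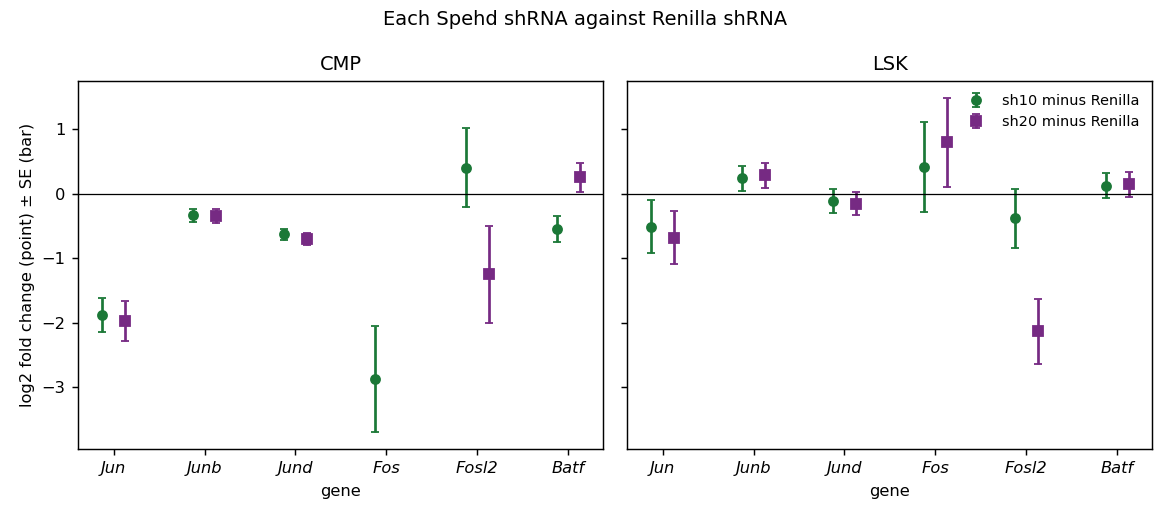
Log2 fold change (points) with its standard error (bars) of 6 AP-1 genes for sh10 and sh20 against *Renilla* shRNA, in CMPs (left) and LSK cells (right). *Fos* with sh20 in CMPs is left out because its libraries held 0 and 1 count; *Jun* lies at -1.89 and -1.98 in CMPs and at -0.51 and -0.68 in LSK cells, where the bars are wider.

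Whether the same genes moved in LSK cells was tested, since those libraries took no part in choosing the members. None of the 6 members passed the threshold upon *Spehd* knockdown in LSK cells, where 0% of 13441 genes passed by edgeR's quasi-likelihood test after Benjamini-Hochberg adjustment. DESeq2 also called 0 genes, and 492 genes had an unadjusted p under 0.05. *Jun* had 130, 128, 116 and 241 CPM with *Renilla* shRNA. It had 110, 127 and 83.3 CPM with sh10 and 36.6, 104 and 152 CPM with sh20. The groups overlapped, and within sh20 the libraries differed more than the group means did. Its log2 fold change was -0.6 (SE 0.33), with an unadjusted p of 0.0936 and an adjusted p of 0.998 by edgeR's quasi-likelihood test, and was -0.51 (SE 0.41) for sh10 and -0.68 (SE 0.41) for sh20.

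*Jund* had 161, 114, 146 and 167 CPM with *Renilla* shRNA in LSK cells, 121, 170 and 113 CPM with sh10 and 135, 150 and 119 CPM with sh20. *Junb* had 108, 96, 113 and 119 CPM with *Renilla* shRNA, 102, 172 and 108 CPM with sh10 and 139, 118 and 149 CPM with sh20. The sh10 replicate B library was the highest of the LSK libraries for both genes and for *Batf*, at 86.4 CPM. Log2 fold changes were -0.13 (SE 0.15) for *Jund*, 0.26 (SE 0.16) for *Junb*, 0.61 (SE 0.59) for *Fos* and 0.13 (SE 0.16) for *Batf*, each with an adjusted p of 0.998 by edgeR's quasi-likelihood test. *Fos* had 8.86, 1.8, 4.35 and 7.54 CPM with *Renilla* shRNA, 7.91, 7.44 and 7.03 CPM with sh10 and 1.38, 10.5 and 18 CPM with sh20. The sh20 replicate A library was thus the lowest for both *Jun* and *Fos* among LSK libraries. No member was without overlap between all *Spehd* and all *Renilla* libraries in LSK cells, as 0.937% of genes were in either direction.

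*Fosl2* had the largest fitted fold change of the 6 members in LSK cells, with sh20. It had 17.7, 5.41, 13.6 and 16.2 CPM with *Renilla* shRNA, 9.67, 5.34 and 15.3 CPM with sh10 and 2.17, 3.65 and 3.3 CPM with sh20. All 3 sh20 libraries were below the other 7. The log2 fold change against *Renilla* shRNA was -2.14 (SE 0.51) for sh20, with an unadjusted p of 0.00141 and an adjusted p of 0.238 by edgeR's quasi-likelihood test, and -0.38 (SE 0.46) for sh10. With edgeR 0% of 13828 genes passed for sh10 (457 with an unadjusted p under 0.05) and 0% for sh20 (1152), whereas DESeq2 called 3 and 195 genes, *Fosl2* among the latter with an adjusted p of 0.0108. The sums of neutrophil markers given above were also low in all 3 sh20 libraries. They were 5.06, 309, 8.98 and 138 CPM in *Renilla* replicates A to D, where *Fosl2* had 17.7, 5.41, 13.6 and 16.2 CPM. In sh10 replicates A to C they were 69.5, 292 and 91.7 CPM, where *Fosl2* had 9.67, 5.34 and 15.3 CPM. Their part in the result was not tested.

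The fold change in CMPs minus that in LSK cells, in a fit of all 19 libraries, was -1.35 (SE 0.46) for *Jun*, -0.54 (SE 0.18) for *Jund* and -0.61 (SE 0.19) for *Junb* on the log2 scale. It was 0.82 (SE 0.68) for *Fosl2*, running from -0.39 to 1.25 over the alternatives, and -0.29 (SE 0.24) for *Batf*, and none is given for *Fos*, which had 0 and 1 count with sh20 in CMPs. These are descriptions, because the CMP side helped to choose the genes.

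The shRNAs were then compared with each other, which measures whether they differ without the controls. In CMPs, 6.41% of 13824 genes differed between sh20 and sh10 and 0 of the 4 members tested did (edgeR's quasi-likelihood test, Benjamini-Hochberg adjustment), with 3668 genes at an unadjusted p under 0.05. DESeq2 called 1978 genes, *Batf* and *Fos* among them. *Jun* and *Jund* were not tested here, because their low values under both shRNAs in these libraries were known when the members were chosen. As a description, their log2 differences, sh20 minus sh10, were -0.09 (SE 0.31) and -0.07 (SE 0.1). *Batf* was higher with sh20 in every library, by 0.81 (SE 0.24), with an adjusted p of 0.0698 with edgeR's quasi-likelihood test and 0.0208 with DESeq2. Some markers of other cells were also higher with sh20 past the threshold, where 2.77% of all genes were higher. They were 4 of 6 T cell, 1 of 7 monocyte and macrophage and 1 of 4 megakaryocyte markers. Of the red cell markers 0 of 5 passed, and of the B cell markers 0 of 1. *Cd3g*, a subunit of the T cell receptor complex, had 31.8 CPM with sh20 and 0.28 CPM with sh10 on average. The part of these cells in the result was not tested. *Fos* was lower with sh20, at 1 count against 37, or 28.5 times lower per count sequenced (95% exact binomial interval 4.8 to 1154), with an adjusted p of 0.0956 in edgeR's test. *Fosl2* differed by -1.65 (SE 0.79, adjusted p = 0.215 in edgeR's test) and this rested on sh20 replicate B. It was -4.06 without sh20 replicate C and -0.79 without replicate B, fits in which the lone sh20 library is assumed to vary like the other groups.

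In LSK cells 0% of 13828 genes differed between sh20 and sh10 with edgeR, 1268 having an unadjusted p under 0.05, and DESeq2 called 256 genes, none of them a member. *Fosl2* was lower with sh20 than with sh10 in every library, by -1.76 (SE 0.52), with an unadjusted p of 0.00626 and an adjusted p of 0.303 by edgeR's quasi-likelihood test.

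CMPs arise from the LSK compartment, and the last comparisons asked how AP-1 differed between the cell types under each shRNA. They share the CMP libraries with the contrast that chose the members. With *Renilla* shRNA 19.8% of 15066 genes passed the threshold. Of the 5 members other than *Jun* and *Jund*, 1 did, *Fosl2*. The CMP levels of *Jun* and *Jund* were known when the members were chosen, so their differences between cell types are descriptions with no test. *Jund* had 175 to 208 CPM in CMPs and 114 to 167 CPM in LSK cells, a log2 difference of 0.39 (SE 0.13). *Fosl2* was lower in CMPs (3.42 to 5.35 CPM) than in LSK cells (5.41 to 17.7 CPM), by -1.51 (SE 0.51) with an adjusted p of 0.0455 by edgeR's quasi-likelihood test. That adjusted p ran from 0.0141 to 0.164 over the alternatives, and DESeq2 called *Fosl2* alone of the members. In the same comparison 6 of 7 neutrophil markers were lower in CMPs, with a median of -4.44 and 1 of 7 without overlap, and 5 of 6 T cell markers were higher with a median of 3.18. Within the LSK *Renilla* libraries the neutrophil sums were 5.06, 309, 8.98 and 138 CPM in replicates A to D. *Fosl2* had 17.7, 5.41, 13.6 and 16.2 CPM in the same libraries. The part of either marker list in the result was not tested.

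*Junb* was also higher in every CMP library, by 0.39 (SE 0.14, adjusted p = 0.0675 by edgeR's quasi-likelihood test), and *Batf* lower in every one, by -0.45 (SE 0.18, adjusted p = 0.0893), without passing the threshold. With these and *Jund*, 4 of the 7 members were free of overlap between the cell types, as were 31.1% of all genes. *Jun* overlapped, with a log2 difference of 0.31 (SE 0.34), and so did *Fos* at 1.73 (SE 0.72, adjusted p = 0.104, and 0.0211 with no filter on low counts, where *Fosl2* no longer passed), which was 0.71 without CMP *Renilla* replicate D. Replicate D had the highest *Jun* of the *Renilla* libraries in both cell types, at 272 and 241 CPM, and the highest *Fos* in CMPs.

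**Figure D3:**
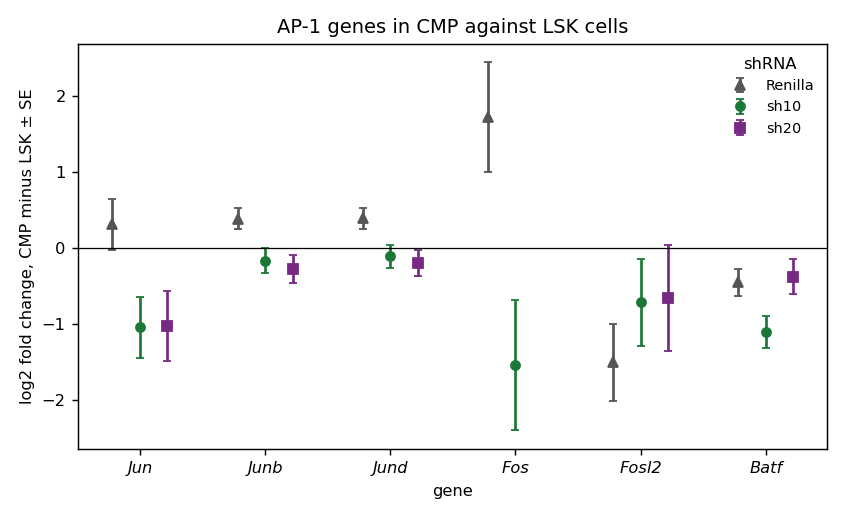
Log2 fold change (points) with its standard error (bars) of CMPs against LSK cells for 6 AP-1 genes, by shRNA. *Fos* with sh20 is left out because its CMP libraries held 0 and 1 count. *Jun*, *Junb* and *Jund* lie above 0 with *Renilla* shRNA and below 0 with either *Spehd* shRNA, except that *Junb* and *Jund* are above 0 with sh10, at 0.14 and 0.12, when LSK sh10 replicate B is left out.

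With sh10, 16.1% of genes and 1 of the 5 members tested differed between the cell types. *Batf* was lower in CMPs (24.5 to 35.5 CPM) than in LSK cells (51.7 to 86.4 CPM), by -1.11 (SE 0.21) with an adjusted p of 0.00165 by edgeR's quasi-likelihood test, and it passed in all 13 alternatives. Markers of other cells were lower in the same CMP libraries, namely 5 of 7 neutrophil markers (median -4.37), 3 of 7 monocyte and macrophage markers (median -1.3), 2 of 6 T cell markers (median -1.11) and 1 of 3 B cell markers (*Cd79b*, at 27.9 and 67.8 CPM). Their part in the result was not tested. *Fos* at -1.54 (SE 0.86) and *Fosl2* at -0.72 (SE 0.57) did not pass. As a description, *Jun* had a log2 difference of -1.05 (SE 0.4), with every CMP library below every LSK library, and *Jund* of -0.11 (SE 0.15).

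With sh20, 14.6% of genes and 1 of the 5 members tested differed. *Fos* had 0 and 1 count in CMPs and 7, 49 and 98 counts in LSK cells, a ratio of 118 per count sequenced (95% exact binomial interval 20.9 to 4701) with an adjusted p of 0.00786 by edgeR's quasi-likelihood test. Without CMP sh20 replicate B, which held the 0, the adjusted p was 0.0783 with the direction kept, and the lone CMP sh20 library of that fit is assumed to vary like the other groups. With sh20, 0 of 7 neutrophil and 0 of 7 monocyte and macrophage markers passed. In CMPs 3 of 6 T cell, 1 of 3 B cell and 2 of 4 megakaryocyte markers were higher, as were 5.94% of all genes. The part of these cells in the result was not tested. *Batf* at -0.38 (SE 0.23) and *Fosl2* at -0.66 (SE 0.7) did not pass. As a description, *Jun* had a log2 difference of -1.03 (SE 0.46), with LSK replicate A at 36.6 CPM below both CMP libraries, and *Jund* of -0.2 (SE 0.17).

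Across the 19 libraries *Fos* followed *Jun*. On log2 CPM their Pearson's r was 0.77 over the libraries and 0.74 on deviations from the 6 group means, so libraries with high *Jun* for their group tended to have high *Fos*. *Junb* and *Jund* ran together as well (r of 0.63 and 0.65 on the 2 measures), whereas *Jun* and *Jund* had 0.68 over all libraries and 0.23 within groups. *Fosl2* and *Junb* had -0.26 and -0.22. These are descriptions over libraries that share 6 groups, normalization and a range of depth.

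**Figure D4:**
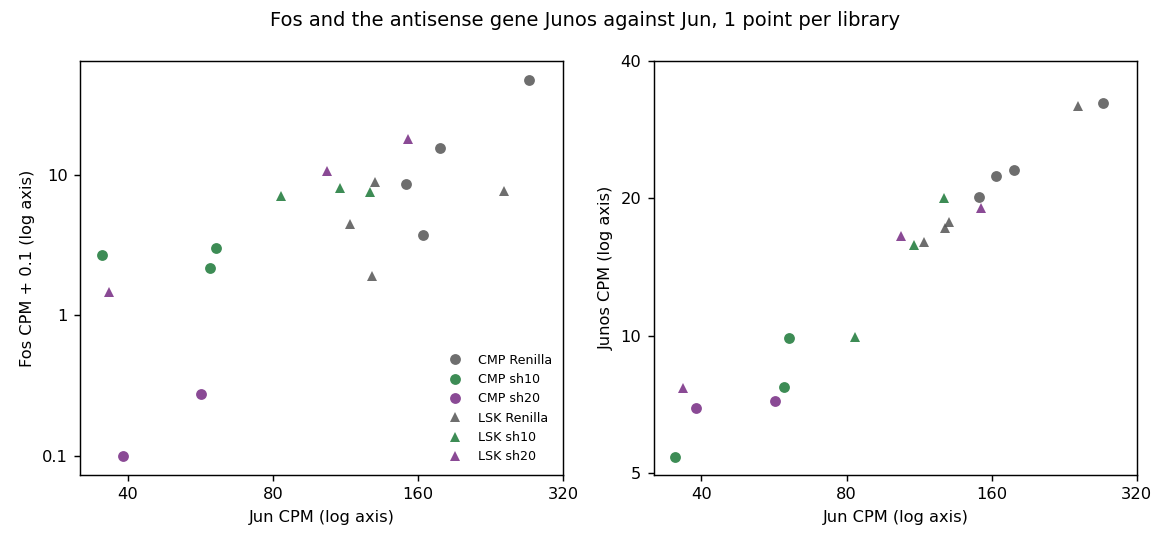
*Fos* (left, CPM plus 0.1) and the antisense gene *Junos* (right, CPM) against *Jun* (CPM) in the 19 libraries, all axes logarithmic, with circles for CMPs and triangles for LSK cells. *Junos* follows *Jun* with an r of 0.98 on log2 CPM, and the pair of CMP sh20 libraries lies far below the others for *Fos*.

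Among the 10484 genes averaging 50 counts or more, the gene most like *Jun* over the 19 libraries was *Junos*, an antisense gene that starts within the *Jun* locus, with an r of 0.98 on log2 CPM and 0.94 on deviations from group means. *Junos* exons cover 232 of the exonic bases of *Jun*, or 7.3%, on the opposite strand. *Junos* counts were 11.9% to 21% of *Jun* counts in the libraries, with a median of 13.6%. Whether the libraries kept the strand of the RNA is not given in the sources used here, so reads of the pair cannot be told apart where they overlap. The part of such reads in the likeness of *Junos* to *Jun* was not tested. The next genes on log2 CPM were *Ccdc12* (0.81), *Nkg7* (0.79), a granule protein of cytotoxic lymphocytes, *Atp6v0b* (0.78), a subunit of the vacuolar proton pump, and *Ptprcap* (0.77), which binds the phosphatase CD45. On deviations from group means they were *Ms4a3* (0.87), a marker of granulocyte and monocyte progenitors, *Gimap5* (0.86), *Ccdc84* (0.84) and *Itpkb* (0.84). For *Fos* they were *Ccdc102a* (0.81), *Jun* (0.77), *Ginm1* (0.76), *Junos* (0.76) and *Ccdc12* (0.75), and on deviations *Ikbke* (0.78), *Gm20559* (0.78), *Arhgap28* (0.77), *Rab28* (0.76) and *Vps29* (0.76). *Jun* and *Fos* thus shared *Ccdc12* and *Junos* among their nearest genes on the first measure and none on the second.

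The rest of the pathway was taken from lists of known partners, upstream factors, brakes and targets. Upon *Spehd* knockdown in LSK cells 0 genes of any list passed, as of all genes. In CMPs, given again without a test, the 20 kinases and transcription factors upstream of AP-1 had a median log2 fold change of 0.07, with 0 of 20 lower and 2 higher in every *Spehd* library, as 6.38% and 2.89% of all genes were. The 10 other AP-1 partners tested had a median of 0.07, with 0 lower and 0 higher without overlap. The 9 brakes on AP-1 tested (phosphatases of the MAP kinases, RNA-binding proteins that destabilize early transcripts and ubiquitin ligases) had -0.16, with 1 lower. The 18 immediate early genes outside AP-1 had -0.22, with 2 lower and 0 higher, and the 10 AP-1 target genes had -0.04, with none in either direction.

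Between sh20 and sh10 in CMPs the AP-1 target genes had the largest median of these 5 lists, 0.72 over 10 genes, with 1 lower and 2 higher past the threshold, where 3.64% of all genes were lower and 2.77% higher. *Mmp9*, a matrix protease, was higher with sh20 by 5.64 (SE 0.78, adjusted p = 0.00974), the cytokine *Il1b* by 3.58 (SE 0.84, adjusted p = 0.0394), and the adhesion receptor *Cd44* was lower by -0.75 (SE 0.19, adjusted p = 0.0486), all by edgeR's quasi-likelihood test. The 7 monocyte and macrophage markers had a median of 2.12 in the same comparison, with 1 higher past the threshold and 0 lower. Their summed level ran from 304 to 585 CPM with sh20 and from 228 to 315 CPM with sh10. The part of these cells was not tested. Of the immediate early genes 4 of 19 were higher with sh20 and 0 lower, among them the quiescence factor *Klf2* by 2.19 (SE 0.35, adjusted p = 0.0134), *Btg2* by 1.33 (SE 0.26, adjusted p = 0.0223) and *Zfp36*, which is also among the brakes, by 1.1 (SE 0.23, adjusted p = 0.028). T cell markers moved with these, 4 of 6 being higher past the threshold. *Klf2* had means of 23.5, 5.72 and 25.8 CPM with *Renilla* shRNA, sh10 and sh20 in CMPs and *Cd3g* 13.2, 0.28 and 31.8 CPM, and the part of T cells in these values was not tested. *Fos* had the opposite sign, without passing. Among the brakes *Trib1* was also higher and *Zfp36l2* lower, and 1 upstream factor, *Creb1*, was lower by -0.59 (SE 0.12, adjusted p = 0.0238).

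Between CMPs and LSK cells with *Renilla* shRNA, 1 of 11 other partners was lower in CMPs and 1 higher, where 8.73% of all genes were lower and 11% higher. *Jdp2*, a repressor that pairs with JUN, was lower by -1.17 (SE 0.31, adjusted p = 0.0138 by edgeR's quasi-likelihood test), and the stress factor *Atf4* was higher by 0.44 (SE 0.12, adjusted p = 0.0186). Of the target genes 3 of 11 were lower and 1 higher, with *Hmox1*, which degrades heme, at -1.85 (SE 0.34, adjusted p = 0.00124) and the urokinase receptor *Plaur* at -1.22 (SE 0.29, adjusted p = 0.00715). Of the brakes 2 of 10 were lower and 1 higher, the ERK phosphatase *Dusp6* at -0.74 (SE 0.13, adjusted p = 0.000799). The median over the target genes was -0.47, against -0.02 over all genes. Beside the neutrophil markers given above, 2 of 7 monocyte and macrophage markers were lower in CMPs, with a median of -0.98, and the part of either list in these values was not tested. With sh10, where 8.58% of all genes were lower and 7.51% higher, 7 of 19 immediate early genes were lower in CMPs and 0 higher, *Socs3*, a feedback inhibitor of cytokine receptors, by -2.65 (SE 0.42, adjusted p = 0.0004), and 5 of 10 brakes were lower and 1 higher, *Dusp1* being lower by -1.31 (SE 0.31, adjusted p = 0.00779). In the sh10 comparison 5 of 7 neutrophil and 3 of 7 monocyte and macrophage markers were lower, and 4 of 11 heat shock genes higher. The part of these lists was not tested. With sh20, where 8.64% of all genes were lower and 5.94% higher, 5 of 19 immediate early genes were lower and 2 higher, *Socs3* by -3.52 (SE 0.53, adjusted p = 0.00032).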

How the data were processed

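Counts per gene were deposited for 19 libraries from 9 CMP and 10 LSK samples. Per the paper's methods, the authors made libraries with a SMART-Seq v4 kit, aligned reads to mm10 with STAR, removed duplicates with Picard and counted them on GENCODE vM11 with HTSeq at default settings. These deposited counts are whole and not normalized, and duplicates were gone before counting. Reads on no gene were 51.9% to 53.8% and stayed out. Groups came from the labels. Groups were tested with edgeR's quasi-likelihood method after TMM and filterByExpr (minimum count 10, minimum total 15), with Benjamini-Hochberg adjustment over all genes tested and a threshold of 0.05. Comparisons within a cell type used its libraries, and those between cell types used all 19. The standard error is the log2 fold change over the root of F. CPM use TMM over all libraries, and log2 CPM a prior count of 2. Coordinates and exonic lengths came from GENCODE vM21. The members and lists were chosen with earlier results of these data known, and 1 gene first listed among the partners is not reported here. The text names all 8 members and *Junos*, up to 3 list genes per comparison with the lowest p past the threshold, the 5 genes most like *Jun* and *Fos*, and markers for checks. The test was tested on simulated data with 200 genes changed 2-fold or 4-fold in equal shares. These were drawn from genes averaging 50 counts or more, so recovery of genes with fewer counts was not measured. For LSK knockdown over 13441 genes it recovered 68 of those changed 2-fold and 95 of those changed 4-fold, with 3 false calls. Alternatives were other size factors, upper quartile scaling, other filters, DESeq2, a replicate block, log2 total counts as a covariate, separate shRNA groups, all libraries in 1 fit and each library left out. After seeing the data, leaving out both *Renilla* D libraries and leaving *Jun* and *Jund* out of the median were added. Normalized counts the authors also deposited were not used. Tools were R 4.3.3, edgeR 4.0.16, DESeq2 1.42.0, Python 3.11.15, scipy 1.17.1 and matplotlib 3.10.9.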

Additional observations from a re-analysis of the deposited data

Results flagged for a closer look

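In the *Renilla* groups of 4 libraries, 16 member and group combinations were examined for a library far from the others, and 2 were found. *Jun* in LSK *Renilla* replicate D was 241.4 CPM against 116 to 130 CPM in replicates A to C, a gap of 0.883 of the range. *Atf3* in CMP *Renilla* replicate C was 1.851 CPM, from 8 counts, with the other libraries at 0. Chance gives such a result in about 1 of 20 groups, a rate that does not apply to *Atf3*, where a single library above 0 is always found.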

How the results depend on the processing

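The count of members past the threshold upon *Spehd* knockdown in LSK cells stayed at 0 under every alternative, and so did that for sh10 in LSK cells and for sh20 against sh10 in LSK cells. For sh20 in LSK cells DESeq2 called 1 member (*Fosl2*). The counts that follow take in *Jun* and *Jund*, whose calls support nothing because their CMP levels helped to choose the members. Between cell types with *Renilla* shRNA the count of 2 (*Jund* and *Fosl2*) became 1 with DESeq2 size factors, upper quartile normalization or DESeq2 (*Fosl2*) and 1 with no filter (*Fos*, neither of the 2), 0 with at least 10 counts in every library, with the replicate block or with log2 total counts as a covariate, 0 without both D libraries, and 0 to 1 when any 1 library was left out (*Fosl2* without LSK *Renilla* replicate B, *Jund* without LSK *Renilla* replicate D), so every library of these groups decided it. With sh10 it was 2 with no filter or DESeq2 (*Batf* and *Jun*) instead of 1 (*Batf*). With sh20 it was 3 with no filter (*Fos*, *Atf3* and *Jun*) instead of 1 (*Fos*) and 0 with at least 10 counts in every library, where *Fos* is not tested, and 0 to 2 with 1 library left out (0 without CMP sh20 replicate B, 2 without CMP sh20 replicate C, *Fos* and *Fosl2*, or without LSK sh20 replicate A, *Fos* and *Jun*). For sh20 against sh10 in CMPs it was 1 with no filter (*Fos*), 2 with DESeq2 (*Fos* and *Batf*) and 0 to 2 with 1 library left out (2 without sh20 replicate C, *Fosl2* and *Batf*). The cause of these shifts was not tested. The median log2 fold change in CMPs ran from -0.67 to -0.39 over the other settings, and from -0.53 to -0.44 with 1 library left out. Signs reversed for differences near 0: *Jund* in LSK knockdown was 0.047 with log2 total counts as a covariate. For sh20 against sh10 in CMPs *Jun* ran from -0.39 to 0.15 and *Jund* from -0.16 to 0.093 over all alternatives. With 1 library left out, *Junb* between cell types with sh10 ran from -0.33 to 0.14 and *Fosl2* with sh20 from -3.07 to 0.22, and over all alternatives *Jund* with sh10 ran from -0.25 to 0.12.

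No source says that replicate letters pair libraries. Deviations from group means correlated from -0.17 to 0.16 over genes in 16 pairs of the same letter and cell type, and from 0.0031 to 0.26 in 9 pairs of a CMP and an LSK library that share letter and shRNA. The block changed the count of calls only between cell types with *Renilla* shRNA, from 2 to 0, and the median in CMPs was -0.43 with it. With 2 to 4 libraries a group, depth limits *Fosb*, *Atf3* and, in CMPs with sh20, *Fos* most.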
